A study of Mus musculus with 12 samples.

Results

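Early lymphoid priming genes are transcripts that multipotent blood progenitors switch on at a low or moderate level before they commit to the B, T or natural killer lineages. A set of 10 such genes, chosen by symbol, was read over 12 RNA-seq libraries: Flt3, Il7r, Dntt, Rag1, Satb1, Notch1, Ikzf1, Tcf3, Lax1 and Il12rb2. All 10 were found among the 15366 genes of the table, and all 10 passed the filter on low values (above 1 CPM, the deposited unit of reads scaled to library size, in at least 3 libraries), as did 13046 genes in all. The libraries came from bone marrow cells sorted as LSK, the lineage-negative, Sca-1-positive, Kit-positive fraction of stem cells and multipotent progenitors, of untreated C57BL/6 mice. The 4 genotypes had 3 libraries each. Vav Cre animals carried the Cre recombinase and served as the control. KDM6B OE animals carried a human KDM6B gene driven by Vav sequences, which are active throughout blood, and their label names no Cre. Tet2 KO animals had Vav Cre and a homozygous floxed Tet2, and double lesion animals had the KDM6B transgene, Vav Cre and a homozygous floxed Tet2. KDM6B removes methyl marks from histone H3 at lysine 27, and TET2 oxidises methylated cytosine in DNA. The labels give no age and no animal for any library. Nothing says that the 3 libraries of a genotype are 3 mice, and p-values therefore cover only the spread between libraries, part of which may be technical.

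In a lymphoid-primed progenitor the cytokine receptor FLT3 marks the cells and supports their growth, and the IL-7 receptor then carries the survival signal of committed lymphoid precursors. The transcription factors Ikaros (Ikzf1), E2A (Tcf3) and SATB1 and the receptor NOTCH1 act upstream of the lymphoid programme. Terminal deoxynucleotidyl transferase (Dntt) and RAG1 are the enzymes of antigen receptor assembly, and Dntt transcripts already appear in multipotent progenitors. Because whole LSK populations were sequenced, fewer cells of a primed type and less RNA in each such cell cannot be told apart.

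Of the 10 genes, 1 changed in 1 of the 8 comparisons. Dntt fell to 52.5% of the control level in the double lesion, where 14.9% of all tested genes changed, and limma and edgeR called no member in either single lesion. Il7r was at 48.5% of the control level in KDM6B OE with every library below every control library, but did not pass over all genes. The other 8 members passed limma's test in 0 of the 8 comparisons. Libraries of 1 genotype differed among themselves: Vav Cre 2 and Tet2 KO 2 were each the lowest of their group in 9 of 10 members.

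The promoters of Dntt, the only member that changed, and of Il7r and Flt3 are shown. Il7r and Flt3, which did not pass the test, were chosen for this after their values were seen. All 10 members matched RefSeq promoters by symbol, with 16 promoters in all. Each stretch runs from 250 bases before to 50 bases after the RefSeq start (GRCm38.p6). Capitals mark the E-box CANNTG, a broad class of sites of which E2A binds only some, and GGGAA on either strand, the core of Ikaros sites. The Dntt promoter is chr19:41029025-41029324 on the plus strand, the Il7r promoter chr15:9529827-9530126 on the minus strand and the Flt3 promoter chr5:147400440-147400739 on the minus strand.
Dntt: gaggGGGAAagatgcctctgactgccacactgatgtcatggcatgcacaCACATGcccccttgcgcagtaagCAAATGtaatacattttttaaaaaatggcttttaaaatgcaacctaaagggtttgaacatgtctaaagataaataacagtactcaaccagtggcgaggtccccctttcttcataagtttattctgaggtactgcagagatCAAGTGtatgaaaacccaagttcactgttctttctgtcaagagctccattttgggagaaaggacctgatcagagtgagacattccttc
Il7r: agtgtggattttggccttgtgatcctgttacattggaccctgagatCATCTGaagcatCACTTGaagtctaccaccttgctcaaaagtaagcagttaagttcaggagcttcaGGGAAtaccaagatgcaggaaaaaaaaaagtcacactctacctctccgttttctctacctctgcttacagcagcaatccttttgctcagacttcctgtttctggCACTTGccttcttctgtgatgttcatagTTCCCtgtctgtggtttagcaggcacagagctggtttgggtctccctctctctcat
Flt3: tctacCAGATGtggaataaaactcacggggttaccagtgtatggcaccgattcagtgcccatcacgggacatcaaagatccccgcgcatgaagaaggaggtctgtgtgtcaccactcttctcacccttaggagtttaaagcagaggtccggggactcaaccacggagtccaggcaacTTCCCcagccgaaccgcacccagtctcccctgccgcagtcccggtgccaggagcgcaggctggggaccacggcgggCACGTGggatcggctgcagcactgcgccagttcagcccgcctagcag
The Dntt stretch held 3 E-box matches and 1 GGGAA match, the Il7r stretch 3 and 2, and the Flt3 stretch 2 and 1. Such matches are common: of 32851 mouse promoters of 300 bases, 72.3% held an E-box and 62.7% held GGGAA, searched on both strands. The longer word TGGGAA, the core of sites for the Notch partner RBPJ, contains GGGAA. It stood in 25.6% of promoters and in none of the 3 printed ones. A match describes letters only, and binding was not measured.

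Per kilobase of the longest annotated transcript, the mean level over the 12 libraries was 301 CPM for Dntt, 108 for Flt3, 40.3 for Tcf3, 30.5 for Lax1, 25.8 for Satb1 and 25.1 for Ikzf1. It was 5.34 for Il12rb2, 4.38 for Il7r, 3.62 for Notch1 and 0.141 for Rag1. Dntt and Flt3 thus stood well above the rest, and Rag1 was near the limit of detection. Within Vav Cre, Tcf3, Lax1, Satb1 and Ikzf1 (34.5, 27.1, 25.1 and 24.2 CPM per kilobase) did not differ beyond the spread between libraries, nor did Il7r, Il12rb2 and Notch1 (5.92, 4.46 and 4.06).

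Values below are CPM unless a log2 scale is named, with mean ± SD over 3 libraries. A log2 difference is on the log2(CPM + 1) scale with its SE from limma, and the adjusted p is limma's with Benjamini-Hochberg adjustment over all genes of a comparison; calls are at an adjusted p under 0.05. Reads on listed genes ran from 21935022 to 26263370 per library, and a count of 0 allows up to 3 reads, at most 0.139 CPM, for counting error only. Tet2 was at 64.9 to 97.1 CPM in the 6 libraries without floxed Tet2 and at 24.1 to 37.2 CPM in the 6 with it. Mouse Kdm6b was at 7.79 to 12.5 CPM in the 6 transgenic libraries and at 5.46 to 7.91 CPM in the others, and the human transgene itself was not analysed here. The sort markers Kit (356 to 907 CPM) and Ly6a, which encodes Sca-1 (78.2 to 180 CPM), were present in every library. Y chromosome transcripts were present in double lesion 1 and 3, Tet2 KO 1 and Vav Cre 1, and in none of the other 8 libraries. Egr1, an immediate early gene that responds quickly to stimuli, was at 226 to 673 CPM in the transgenic libraries and at 17.1 to 59.3 CPM in the others, and its part in the results below was not tested.

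Dntt (chromosome 19, 41029275 to 41059525, GRCm38) encodes the polymerase that adds untemplated nucleotides at antigen receptor joints. Vav Cre libraries 1 to 3 had 1014, 556 and 992 CPM of it, and KDM6B OE libraries 607, 642 and 767 CPM. Tet2 KO libraries had 854, 346 and 580 CPM, and double lesion libraries 482, 430 and 434 CPM. All 3 double lesion libraries lay below all 3 control libraries and below all 3 KDM6B OE libraries, while Tet2 KO spanned nearly the whole range. The group means were 854 ± 258, 672 ± 84.1, 593 ± 254 and 449 ± 29.1 CPM in that order.

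Dntt fell in the double lesion against Vav Cre by 0.88 ± 0.27 on the log2 scale (95% interval −1.46 to −0.29, adjusted p = 0.0459). It was thus 1 of 10 members to fall, where 7.58% of all tested genes fell in this comparison and 14.9% changed in either direction, so the share among the members was near the background. That background moved with single libraries: it was 2.31% without double lesion 1, 5.75% without double lesion 2, 6.36% without double lesion 3, 4.69% without Vav Cre 2 and 27.6% without Vav Cre 3, and 2.22% with the compared groups alone. At an unadjusted p under 0.05 it was also 1 member, against 32.3% of all genes. The groups did not overlap for 2 members, Dntt and Il7r, both lower, against 32.8% of tested genes in either direction. The Dntt call was close to the threshold. It ended without Vav Cre 1 or 3, any 1 double lesion library, any 1 KDM6B OE library or Tet2 KO 3 (adjusted p up to 0.125), and when the fit held the compared groups alone (adjusted p = 0.0594). Without a filter the adjusted p was 0.0540, with equal column totals 0.0776 and with the length and GC trend removed 0.0881. The log2 difference lay between −1.16 and −0.73 under all 22 alternatives. Without Vav Cre 2 and Tet2 KO 2 it was −1.16 (adjusted p = 0.00270), where 9.04% of all genes were called. This pair was left out after the values were seen. Vav Cre 2 had the lowest Dntt of the controls, so the larger fall follows from the choice.

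In the other comparisons the Dntt differences were negative, without a call when all libraries were in the fit. In Tet2 KO against Vav Cre the value was −0.57 ± 0.27 (adjusted p = 0.383), and in KDM6B OE it was −0.30 ± 0.27 (adjusted p = 0.546). Against KDM6B OE the double lesion was at −0.58 ± 0.27 (adjusted p = 0.856), a call only with the other groups left out of the fit (−0.58, adjusted p = 0.0295). Averaged over both backgrounds, Tet2 deletion went with −0.57 ± 0.19 (95% interval −0.99 to −0.16, adjusted p = 0.212) and the transgene with −0.31 ± 0.19 (adjusted p = 0.329). Without Vav Cre 2 and Tet2 KO 2 the transgene average of Dntt was −0.62 and was called (adjusted p = 0.0129), where 1.95% of all genes were. Both libraries had the lowest Dntt of their group, so this larger fall also follows from the choice. The interaction, the departure of the double lesion from the sum of both single-lesion differences, was −0.01 ± 0.39 (95% interval −0.84 to 0.82, adjusted p = 0.999).

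**Figure D1:**
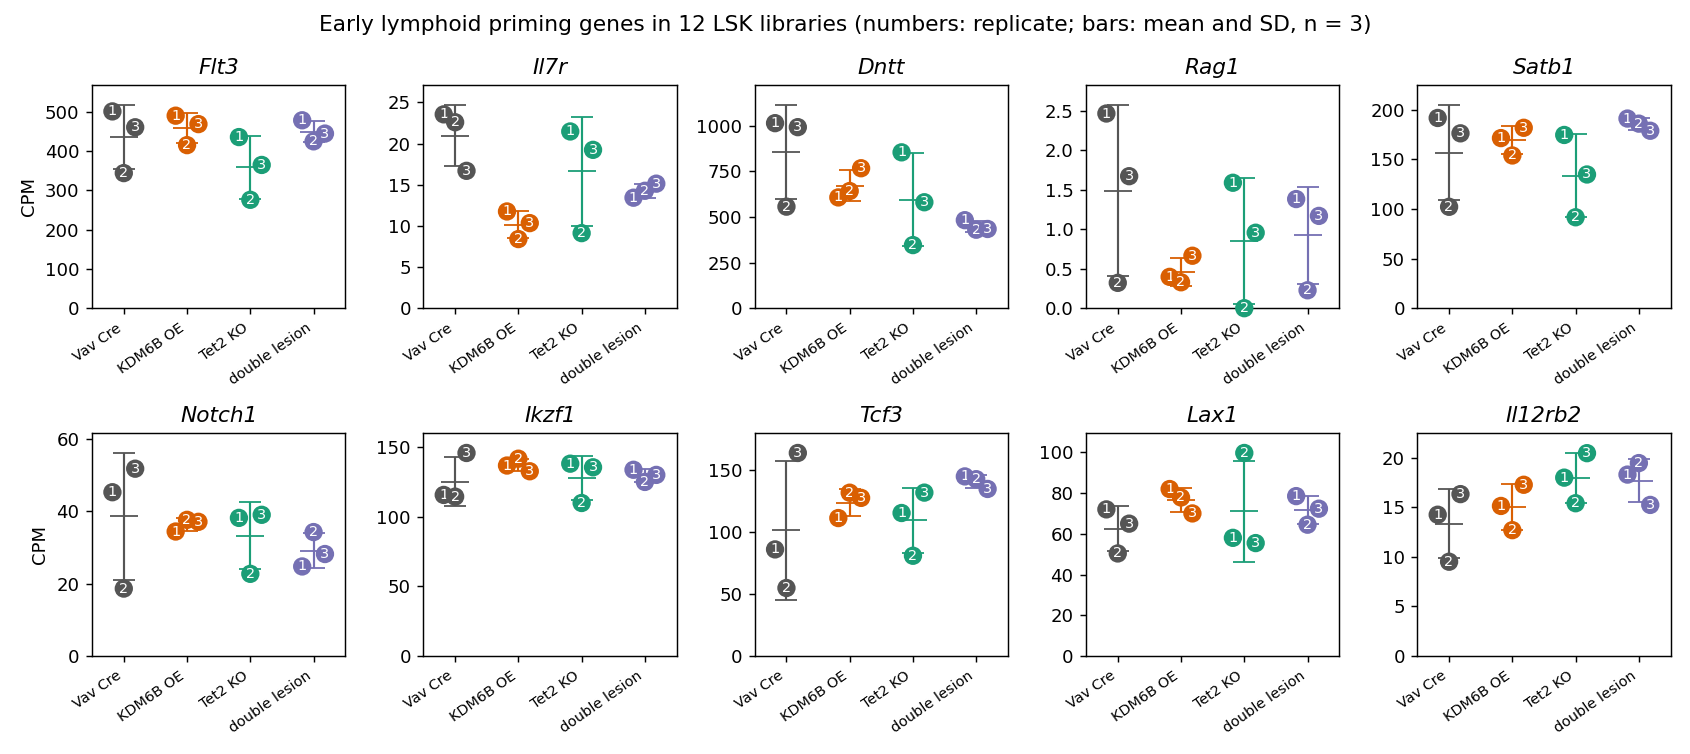
CPM of the 10 genes in each library (y axis, from 0) by genotype (x axis); circles carry the replicate number, and bars show the mean and SD of 3 libraries. Dntt in the double lesion sat at 430 to 482 CPM, below the 556 to 1014 CPM of Vav Cre, and replicate 2 of Vav Cre and of Tet2 KO lay at the bottom of most panels.

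Il7r (chromosome 15, 9505788 to 9530176) encodes the alpha chain of the IL-7 receptor. Vav Cre libraries 1 to 3 had 23.6, 22.6 and 16.7 CPM of it. KDM6B OE libraries had 11.8, 8.40 and 10.3 CPM, Tet2 KO libraries 21.5, 9.12 and 19.2 CPM, and double lesion libraries 13.4, 14.3 and 15.1 CPM. Both transgenic groups lay wholly below Vav Cre, KDM6B OE also lay wholly below the double lesion, and Tet2 KO 2 was the single library without the transgene that fell among them. Against Vav Cre its log2 difference was −0.97 ± 0.27 in KDM6B OE (95% interval −1.55 to −0.39, adjusted p = 0.106). It was −0.51 ± 0.27 in the double lesion (adjusted p = 0.208) and −0.38 ± 0.27 in Tet2 KO (adjusted p = 0.544). The mean over both backgrounds was −0.55 ± 0.19 for the transgene (95% interval −0.96 to −0.14, adjusted p = 0.0922) and 0.04 ± 0.19 for Tet2 deletion (adjusted p = 0.947). Without Vav Cre 2 and Tet2 KO 2, a choice made after the values were seen, the difference was −0.91 in KDM6B OE (adjusted p = 0.0817). For the transgene average it was −0.70 (adjusted p = 0.0352), so the latter was then called, as were 1.95% of all genes.

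No member passed limma's test in KDM6B OE against Vav Cre, where 0.598% of all tested genes did. At an unadjusted p under 0.05 there was 1, Il7r, against 21.6% of all genes. edgeR on the recovered reads called 0 members and DESeq2 called 1, again Il7r (−1.08, adjusted p = 0.0115), where it called 5.65% of all genes. Il7r also passed without Tet2 KO 2 (adjusted p = 0.0348), where 1.1% of all genes did. Without Vav Cre 3 both Il7r (adjusted p = 0.0245) and Tcf3 (0.83, adjusted p = 0.0185, higher in KDM6B OE) passed, but so did 14.9% of all genes. The groups did not overlap in 1 member, Il7r, against 22.6% of tested genes. The median log2 difference of the members was 0.11, beside 0.04 over all tested genes. For the transgene averaged over both backgrounds limma and edgeR called 0 members, against 4.35% of all genes in limma, and 1 member, Il7r, had an unadjusted p under 0.05, against 26.9%. DESeq2 called Il7r there as well (−0.65, adjusted p = 0.0200), among 12.4% of all genes. In limma Il7r passed there without Tet2 KO 2 (adjusted p = 0.0278), where 1.65% of all genes did. Without Vav Cre 3 Il7r (adjusted p = 0.0367) and Tcf3 (0.61, higher, adjusted p = 0.00919) passed, along with 21.4% of all genes.

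Flt3 (chromosome 5, 147330741 to 147400489) encodes the receptor of FLT3 ligand and is used to sort lymphoid-primed progenitors within LSK cells. It was at 501, 344 and 460 CPM in Vav Cre 1 to 3, at 490, 415 and 468 CPM in KDM6B OE, at 435, 276 and 365 CPM in Tet2 KO and at 478, 425 and 444 CPM in the double lesion. Each pair of the 4 ranges overlapped, and Tet2 KO 2 was the lowest library. Against Vav Cre its log2 difference was 0.09 ± 0.16 in KDM6B OE (95% interval −0.26 to 0.44), −0.28 ± 0.16 in Tet2 KO (−0.63 to 0.06) and 0.06 ± 0.16 in the double lesion (−0.29 to 0.41). Changes within these intervals were not excluded with 3 libraries a group.

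Satb1 (chromosome 17, 51736187 to 51833290) encodes a chromatin organiser needed for lymphoid specification. Vav Cre 1 to 3 had 192, 102 and 176 CPM, KDM6B OE 171, 154 and 182 CPM, Tet2 KO 175, 91.6 and 135 CPM and the double lesion 191, 186 and 179 CPM. Every double lesion library lay above every Tet2 KO library (0.52 ± 0.23, adjusted p = 0.459), and the other group ranges overlapped. Satb1 followed Flt3 closely over the 12 libraries, with a Pearson r of 0.94, and of 0.83 without Vav Cre 2 and Tet2 KO 2. By that measure the tested genes most like Flt3 were Rgl1, Satb1, Spint1, Sh3bp5 and F2rl3 (r from 0.92 to 0.96), and those most like Dntt were Traip, Fancc, Ralgapb, Adgrl1 and Brip1os (r from 0.85 to 0.91). These r values are descriptions over 12 libraries of 4 genotypes that share their depth and scaling, and genes were picked for a high r.

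Notch1 (chromosome 2, 26457903 to 26516663) encodes the receptor that directs progenitors to the T lineage. It was at 45.2, 18.6 and 51.8 CPM in the controls, 34.4, 37.6 and 37.1 CPM in KDM6B OE, 38.2, 22.7 and 39.0 CPM in Tet2 KO and 24.7, 34.2 and 28.2 CPM in the double lesion. The double lesion lay wholly below KDM6B OE, and Vav Cre held both the lowest and the highest library of all 12. In the double lesion Notch1 was at −0.29 ± 0.31 against Vav Cre (adjusted p = 0.554). It was called lower there when Vav Cre 2 and Tet2 KO 2 were both left out (−0.73, adjusted p = 0.0153), a choice made after the values were seen, and with the length and GC trend removed (−0.69, adjusted p = 0.0489). These settings called 9.04% and 14.4% of all genes. Without Vav Cre 3 the Notch1 difference was −0.02 (adjusted p = 0.977).

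Tcf3 (chromosome 10, 80409514 to 80433647) encodes the E2A proteins, the E-box factors of early B cell development. Vav Cre 1 to 3 had 86.1, 54.9 and 164 CPM, a 2.99-fold range that also bounds all other libraries. KDM6B OE had 111, 132 and 128 CPM, Tet2 KO 115, 80.9 and 132 CPM, and the double lesion 145, 143 and 135 CPM. The double lesion lay wholly above both single lesions but inside the range of the control. Its log2 difference from Vav Cre was 0.61 ± 0.29 (95% interval −0.00 to 1.22, adjusted p = 0.157). Without Vav Cre 3 it was 1.02 (adjusted p = 0.00352), a setting that called 27.6% of all genes. Without Vav Cre 2 it was 0.24 (adjusted p = 0.562), and with the length and GC trend removed 0.19 (adjusted p = 0.506).

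Ikzf1 (chromosome 11, 11685003 to 11772926), which encodes Ikaros, had the narrowest range of the 10 relative to its level, from 110 to 146 CPM over all libraries. Against Vav Cre its log2 difference was 0.14 ± 0.12 in KDM6B OE, 0.03 ± 0.12 in Tet2 KO and 0.06 ± 0.12 in the double lesion, and the widest of the 3 intervals on either side reached −0.22 and 0.39. Rag1 (chromosome 2, 101638282 to 101649501), the recombinase subunit, was counted from 0 to 58 reads a library. It was at 2.46, 0.320 and 1.67 CPM in the controls, 0.396, 0.328 and 0.663 CPM in KDM6B OE, 1.59, 0 and 0.954 CPM in Tet2 KO and 1.38, 0.226 and 1.17 CPM in the double lesion. The groups overlapped throughout, and at this depth no difference of Rag1 passed the test (adjusted p from 0.374 to 0.999 over the 8 comparisons). Exons of Rag1 overlap those of B230118H07Rik on the same strand, so its few reads are uncertain.

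Lax1 (chromosome 1, 133679091 to 133690108) encodes a membrane adaptor that dampens lymphocyte receptor signalling. It ranged from 50.4 to 82.0 CPM in 11 libraries and was at 99.8 CPM in Tet2 KO 2, the library in which most other members were lowest. Against Vav Cre its log2 difference was 0.30 ± 0.20 in KDM6B OE, 0.15 ± 0.20 in Tet2 KO and 0.21 ± 0.20 for both lesions together, with adjusted p = 0.389, 0.778 and 0.497. Il12rb2 (chromosome 6, 67291318 to 67376188), a chain of the IL-12 receptor, was at 14.3, 9.52 and 16.3 CPM in the controls, 15.2, 12.7 and 17.3 CPM in KDM6B OE, 18, 15.4 and 20.5 CPM in Tet2 KO and 18.3, 19.5 and 15.3 CPM with both lesions. The 6 libraries with floxed Tet2 were higher on average than the 6 without but overlapped with them (0.32 ± 0.15, 95% interval −0.00 to 0.65, adjusted p = 0.343). Exons of Il12rb2 overlap Serbp1 on the opposite strand, those of Notch1 overlap 0610009E02Rik and Gm13568, and those of Satb1 overlap Gm36931 and Gm6934. The library kit does not mark strand, so reads of such partners cannot be told apart.

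**Figure D2:**
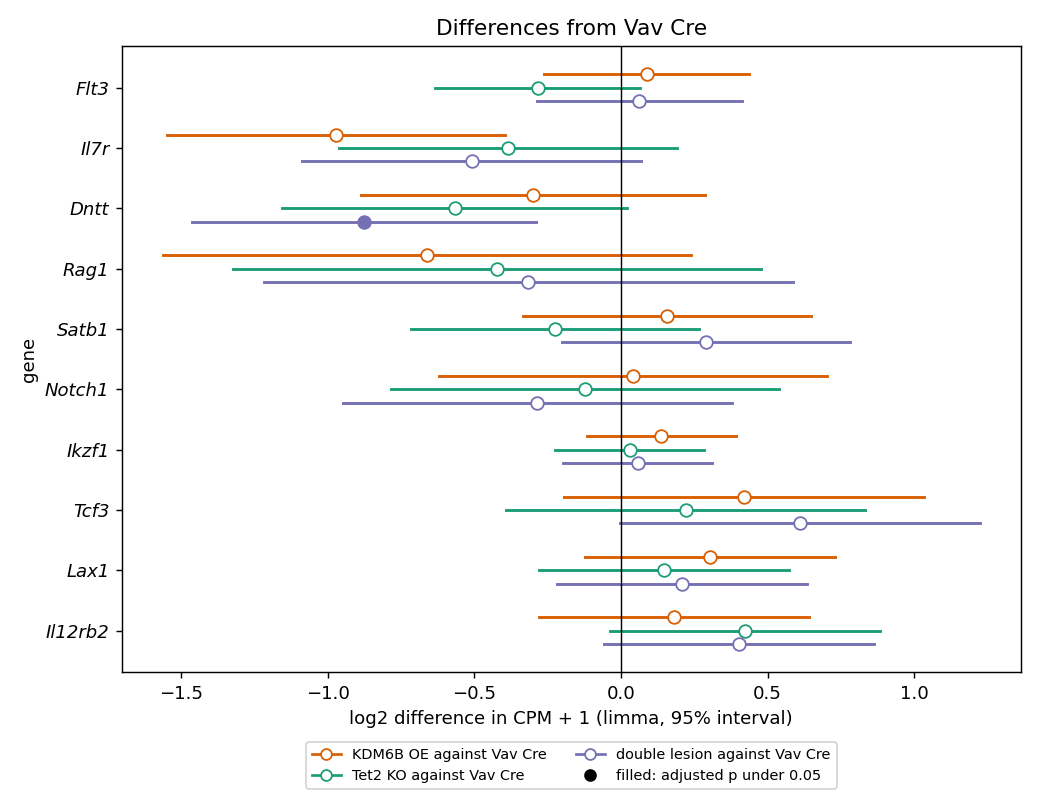
Log2 difference from Vav Cre on the log2(CPM + 1) scale (x axis) for each gene (y axis) and genotype; points are limma estimates, lines 95% intervals, and a filled point marks an adjusted p under 0.05. Dntt in the double lesion, at −0.88, is the only filled point, and the interval of Il7r in KDM6B OE, −1.55 to −0.39, also leaves out 0.

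Tet2 loss alone went with no call among the members in limma, edgeR or DESeq2, where 0.0307% of all genes were called in limma. At an unadjusted p under 0.05 there were 0 members, against 13.5% of all genes, and 0 members had groups that did not overlap, against 12.6%. The median member was at −0.17, beside 0.03 over all tested genes. The mean over both backgrounds for Tet2 deletion gave 0 calls in each of the 3 tools, against 0.207% in limma, and 1 member, Dntt, at an unadjusted p under 0.05, against 14.7%. The double lesion against KDM6B OE gave 0 calls in each tool (0% of all genes in limma) and 0 members at an unadjusted p under 0.05, against 5.91%. Its groups did not overlap in 4 members, Il7r and Tcf3 higher and Dntt and Notch1 lower, against 18.7% of tested genes. The double lesion against Tet2 KO gave 0 calls in each tool, against 0.215% in limma. At an unadjusted p under 0.05 it had 1 member, Satb1, against 10.6%. Its groups did not overlap in 2 members, Satb1 and Tcf3, both higher, against 21.6%. The interaction gave 0 calls in each tool (0% of all genes in limma) and 1 member, Il7r, at an unadjusted p under 0.05 (0.85 ± 0.38, adjusted p = 0.999), against 4.43%. The comparisons share groups, so these counts are not independent of each other.

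The remaining member differences, each on the log2 scale with an SE of at most 0.59, were all without a call in limma. Against Vav Cre the values in KDM6B OE were −0.66 for Rag1, 0.16 for Satb1, 0.04 for Notch1, 0.42 for Tcf3 and 0.18 for Il12rb2 (adjusted p from 0.374 to 0.957). Those in Tet2 KO were −0.42 for Rag1, −0.22 for Satb1, −0.12 for Notch1, 0.22 for Tcf3 and 0.42 for Il12rb2 (adjusted p from 0.406 to 0.888), and those in the double lesion −0.32 for Rag1, 0.29 for Satb1 and 0.40 for Il12rb2 (adjusted p from 0.212 to 0.638). Rag1 was thus below 0 in all 3 genotypes and Il12rb2 above 0, with every interval including 0. In the double lesion against KDM6B OE the values were −0.03 for Flt3, 0.46 for Il7r, 0.35 for Rag1, 0.13 for Satb1, −0.33 for Notch1, −0.08 for Ikzf1, 0.19 for Tcf3, −0.09 for Lax1 and 0.22 for Il12rb2 (adjusted p from 0.906 to 0.995). Against Tet2 KO they were 0.35 for Flt3, −0.12 for Il7r, −0.31 for Dntt, 0.11 for Rag1, −0.16 for Notch1, 0.03 for Ikzf1, 0.39 for Tcf3, 0.06 for Lax1 and −0.02 for Il12rb2 (adjusted p from 0.476 to 0.981). The interaction was 0.26 for Flt3, 0.77 for Rag1, 0.36 for Satb1, −0.20 for Notch1, −0.11 for Ikzf1, −0.03 for Tcf3, −0.24 for Lax1 and −0.20 for Il12rb2 (adjusted p = 0.999 for each). The transgene average was 0.22 for Flt3, −0.28 for Rag1, 0.34 for Satb1, −0.06 for Notch1, 0.08 for Ikzf1, 0.40 for Tcf3, 0.18 for Lax1 and 0.08 for Il12rb2 (adjusted p from 0.198 to 0.885), and the Tet2 deletion average −0.16 for Flt3, −0.04 for Rag1, −0.05 for Satb1, −0.22 for Notch1, −0.02 for Ikzf1, 0.21 for Tcf3 and 0.03 for Lax1 (adjusted p from 0.553 to 0.967).

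The spread within groups was itself uneven. In Vav Cre the median SD of the 10 members on the log2 scale was 0.43, beside 0.28 for the median tested gene, and in Tet2 KO it was 0.45 beside 0.21. In KDM6B OE it was 0.13 beside 0.15, and in the double lesion 0.09 beside 0.15. Vav Cre 2 was the lowest library of its group in every member but Il7r, and Tet2 KO 2 in every member but Lax1. Of the 10 members, 5 had their lowest value of all 12 libraries in Tet2 KO 2 and 4 in Vav Cre 2. Of the 4 libraries with Y transcripts, Vav Cre 1 and Tet2 KO 1 were each the highest of their group in 6 members, double lesion 1 in 7 and double lesion 3 in 1.

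**Figure D3:**
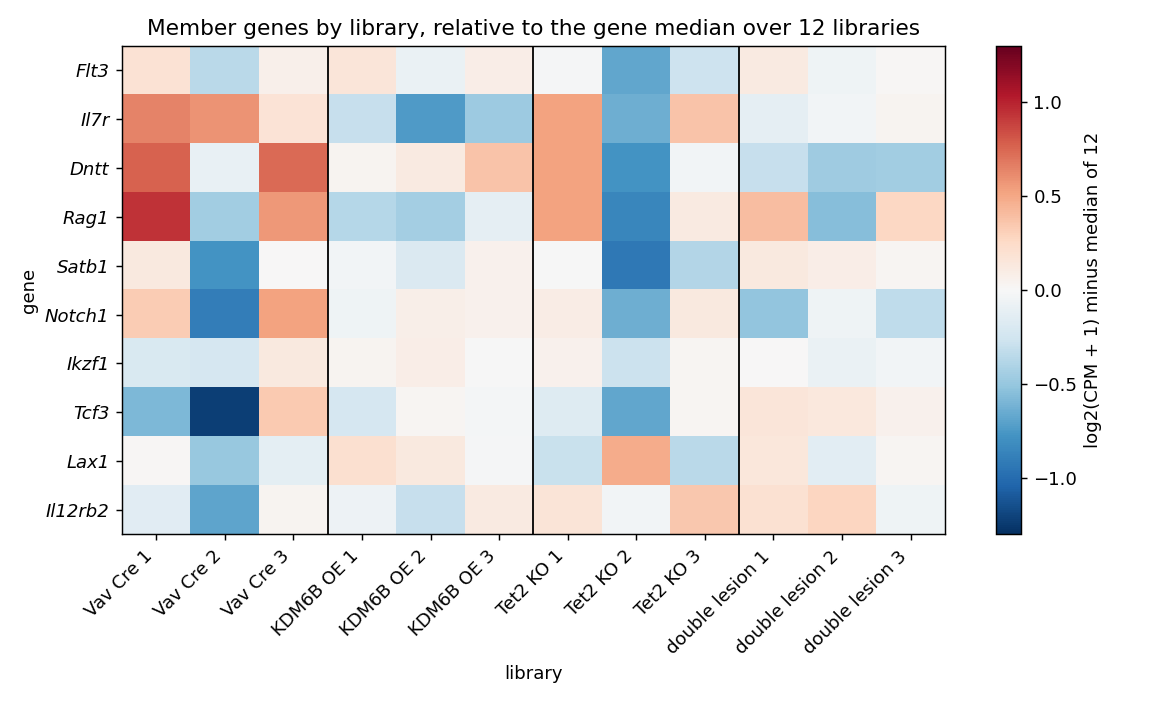
Log2(CPM + 1) of each gene (rows) in each library (columns) minus that gene's median over the 12 libraries; blue is lower and red is higher, and black lines separate the genotypes. The columns Vav Cre 2 and Tet2 KO 2 are blue in most rows, Lax1 in Tet2 KO 2 is red, and Dntt is red in Vav Cre 1 and 3.

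Markers of other cells also differed in these libraries. Klf1 and Gata1, erythroid transcription factors, were at 142 and 119 CPM in Vav Cre 2, against at most 74.0 and 70.7 CPM in the other 11 libraries. The summed megakaryocyte and erythroid list, 7 of 8 markers in the table, spanned 290 to 433 CPM within Vav Cre with Vav Cre 2 highest. The KDM6B OE libraries held 220 to 291, the Tet2 KO libraries 275 to 364 and the double lesion libraries 266 to 281. The summed B cell list, 8 of 8 in the table, spanned 85.5 to 93.0 CPM within Vav Cre. The KDM6B OE libraries held 65.9 to 88.0, the double lesion libraries 84.5 to 115 and the Tet2 KO libraries 65.2 to 209 with Tet2 KO 2 highest. In Tet2 KO 2 the B cell genes Cd79a and Ms4a1 were at 49.8 and 16 CPM, while Pax5, which defines the lineage, had 0 reads there. The part of these cells in the low or high values of those libraries was not tested. The summed T cell list (8 of 8) ran from 34.5 CPM in Tet2 KO 2 to 124 CPM in Vav Cre 1, the plasmacytoid dendritic cell list (6 of 7) from 316 to 508 CPM, the natural killer list (6 of 7) from 219 to 358 CPM, and the neutrophil and monocyte list (10 of 11) from 2280 to 7416 CPM. The long-term stem cell list (8 of 8) ran from 723 to 1177 CPM within Vav Cre. The KDM6B OE libraries held 1122 to 1470, the Tet2 KO libraries 995 to 1557 and the double lesion libraries 1253 to 1664. In the double lesion Hlf and Meis1 rose against Vav Cre (0.68 and 0.64 on the log2 scale, adjusted p = 0.0354 and 0.0209). Of the same list Fgd5 (0.64), Procr (0.33), Mecom (−0.01), Mllt3 (−0.28) and Slamf1 (−0.49) did not pass (adjusted p from 0.183 to 0.980).

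A wider list of 59 other genes of early lymphoid development, of which 56 passed the filter, was read in the same fits. In the double lesion against Vav Cre 4 of 56 rose and 0 fell, where 7.34% of all tested genes rose. The median difference was 0.22, beside 0.05 over all tested genes. Of the 8 genes of IL-7 and related cytokine signalling, 2 rose and all 8 had positive values, as did 7100 of all 13046 tested genes. Jak3, the kinase bound to the common gamma chain of the IL-7 receptor, rose from 90.0 ± 49.2 to 163 ± 29.6 CPM (1.0 ± 0.31, adjusted p = 0.0461). Jak1, the kinase bound to IL-7 receptor alpha, rose from 366 ± 62.5 to 483 ± 35.7 CPM (0.41 ± 0.12, adjusted p = 0.0379). Among 26 transcription factors tested, Sox4, which supports early B cell precursors, rose from 434 ± 128 to 738 ± 138 CPM (0.79 ± 0.21, adjusted p = 0.0283). Jak1 and Sox4 were higher in every double lesion library than in every control library, whereas Jak3 overlapped by 1 control library at 141 CPM. Of 22 alternative settings, 6 kept the Jak3 call, 10 the Jak1 call and 18 the Sox4 call. With a term for Y transcripts in the fit neither Jak3 nor Jak1 passed, where 10.4% of all genes did. The same held with the length and GC trend removed, where 14.4% of all genes passed.

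Among 7 genes of recombination and the pre-B cell receptor, Igll1, which encodes part of the surrogate light chain, rose (1.96 ± 0.51, adjusted p = 0.0251). Vav Cre libraries had 0, 1 and 0 reads of Igll1, KDM6B OE 22, 36 and 14 reads, Tet2 KO 25, 8 and 39 reads and the double lesion 170, 9 and 136 reads. Each library outside the control had more Igll1 than each control library, and double lesion 1 and 3, which carry Y transcripts, had the most. With the control at 0 to 1 reads the size of the log2 difference depends on the pseudocount. Rag2, the partner of RAG1, was at 24.5, 11.4 and 21.0 CPM in Vav Cre and 7.27, 10.9 and 14.7 CPM in the double lesion (−0.72 ± 0.32, adjusted p = 0.141). Pax5 was at most 0.522 CPM in any library.

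Of the 6 Notch pathway genes tested, 0 passed in the double lesion and 5 of 6 values were positive (median 0.21); Hes1, a direct Notch target, was at 0.28 (adjusted p = 0.613). Of the 9 surface proteins of lymphoid progenitors 0 passed and 8 of 9 values were negative (median −0.30), with Cd48 at −0.56 (adjusted p = 0.0616) and Ccr9, a chemokine receptor of thymus-seeding cells, at −0.64 (adjusted p = 0.161). In KDM6B OE all 9 of these were negative (median −0.45), with 0 past the test in limma and 3 at an unadjusted p under 0.05, against 21.6% of all genes. Over all genes 5870 of 13046 were negative in that comparison. In the double lesion against Vav Cre 5946 of 13046 were negative and 7100 positive.

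**Figure D4:**
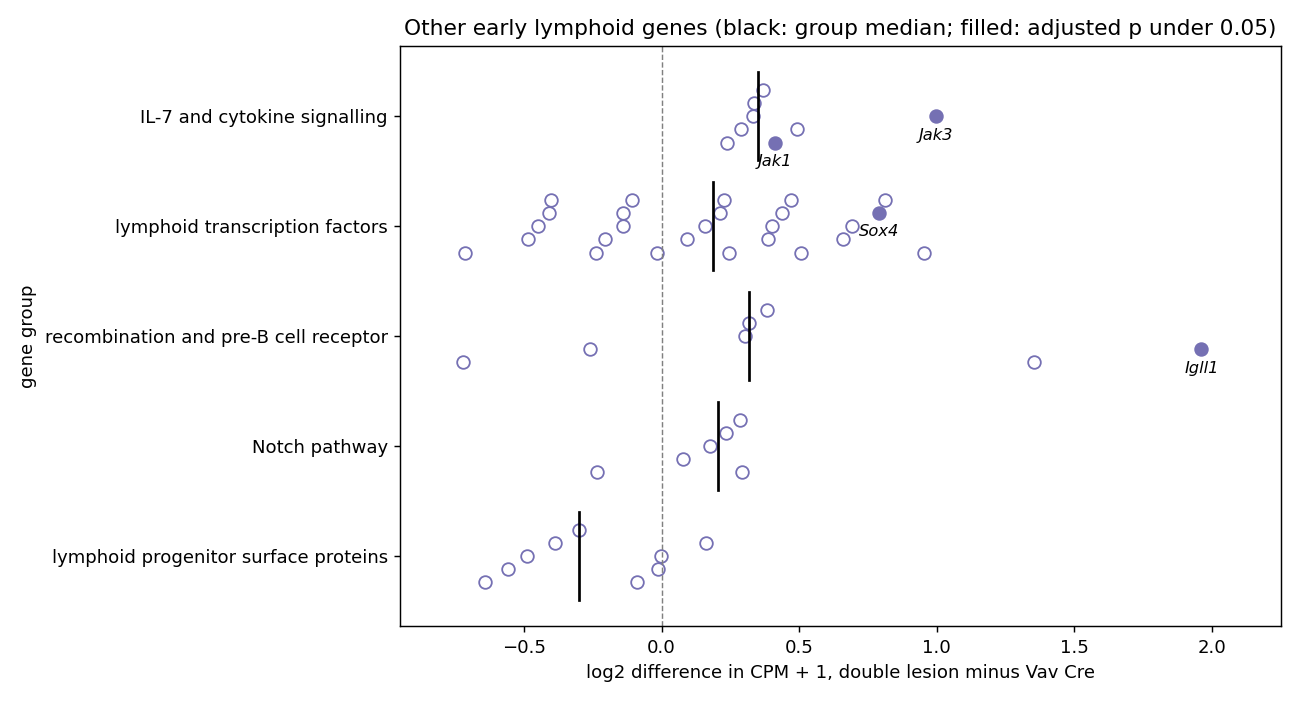
Log2 difference of the 56 tested genes of the wider list between the double lesion and Vav Cre (x axis, log2(CPM + 1) scale) by gene group (y axis); each circle is a gene, black lines are group medians and filled circles have an adjusted p under 0.05. The 4 filled circles, Jak1, Jak3, Sox4 and Igll1, are all to the right of 0, while the surface proteins have a median of −0.30.

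The number of calls in the wider list moved with single libraries, as did that over all genes. Without Vav Cre 2 or without double lesion 1 there were 0, where 4.69% and 2.31% of all genes were called. Without double lesion 2 only Igll1 and without double lesion 3 only Sox4 passed (5.75% and 6.36% of all genes), while without Vav Cre 3 there were 15 of 56 (27.6% of all genes). Without Vav Cre 2 and Tet2 KO 2 together, the differences of Sox4, Igll1, Jak3 and Jak1 were 0.55, 1.98, 0.54 and 0.28. Only Sox4 of these passed (adjusted p = 0.0429, the others from 0.0510 to 0.107), where 9.04% of all genes did. This pair was left out after the values were seen. In KDM6B OE against Vav Cre limma and edgeR called 0 of 56 and DESeq2 called 3, where DESeq2 called 5.65% of all genes. At limma's unadjusted p under 0.05 there were 11, against 21.6% of all genes. The smallest p belonged to Jak3 (1.08 ± 0.31, adjusted p = 0.113) and Sox4 (0.73 ± 0.21, adjusted p = 0.115). In Tet2 KO against Vav Cre limma and edgeR called 0 and DESeq2 2, where DESeq2 called 1.23% of all genes. At an unadjusted p under 0.05 there were 9, against 13.5%. The smallest p there belonged to Bcl11b, a T lineage factor, at 3.31, 0.961 and 3.95 CPM in Vav Cre and at 0.557, 0.0463 and 0 CPM in Tet2 KO (−1.56 ± 0.34, adjusted p = 0.158), and to Stat4 (0.34 ± 0.11, adjusted p = 0.246), a signal carrier of the IL-12 receptor.

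In the remaining comparisons limma called 0 of the 56 genes. For the double lesion against KDM6B OE the smallest p belonged to Id2, an inhibitor of E proteins (0.76 ± 0.22, adjusted p = 0.513), and Ly6d, a surface marker of B-biased progenitors (1.52 ± 0.59, adjusted p = 0.710). For the double lesion against Tet2 KO it belonged to Id3, another inhibitor of E proteins (0.90 ± 0.35), and Stat5b, which relays IL-7 signals (0.38 ± 0.15), both with an adjusted p of 0.416. For the interaction it belonged to Id2 (1.12 ± 0.31) and Bcl11b (1.71 ± 0.48), both with an adjusted p of 0.999. For the average effect of the transgene it belonged to Gfi1, a transcriptional repressor (0.87 ± 0.28, adjusted p = 0.0803), and Stat5b (0.31 ± 0.11, adjusted p = 0.0900). For Tet2 deletion it belonged to Stat5a (0.25 ± 0.08, adjusted p = 0.187) and Bcl11b (−0.71 ± 0.24, adjusted p = 0.218). At an unadjusted p under 0.05 there were 5, 5, 5, 12 and 14 of the 56 genes in these 5 comparisons, against 5.91%, 10.6%, 4.43%, 26.9% and 14.7% of all genes; edgeR called 0 in each but 1 for the transgene (Igll1), and DESeq2 called 0, 0, 0, 3 and 2.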

How the data were processed

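RNA of sorted LSK cells was measured in 12 libraries, 3 for each of 4 genotypes, made from 10 to 20 ng of total RNA with the SMARTer and Nextera kits per the labels' protocols. Per the submitters' processing notes, TopHat2 2.0.10, HTSeq 0.6.0 and edgeR 3.8.6 were used on mm10, with annotation and strand setting not given in the sources used here. As signal, the authors deposited a table of 15366 genes, CPM over an effective library size, which is a read count divided by a size factor. All values (100%, tolerance 1e-06 reads) gave back whole reads, and each gene had at least 10 reads in sum. Libraries held 21935022 to 26263370 reads, without molecular identifiers.

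Tests were limma 3.58.1 (R 4.3.3, mean trend) on log2(CPM + 1) with 1 mean per genotype, all 12 libraries in the fit and 8 residual degrees of freedom, over 13046 genes above 1 CPM in at least 3 libraries. The average effects set 6 libraries against 6. Alternatives included edgeR 4.0.16 and DESeq2 1.42.0 on the recovered reads. The limma and edgeR fits of the double lesion and of Tet2 KO against Vav Cre were also run on simulated data, and the other fits were not. Members and gene lists were chosen with earlier results of these data known. All 10 members are named in every comparison; of the wider list, the genes past the test, or else the 2 with the smallest p. Coordinates and lengths are from GENCODE M21 (GRCm38). Some marker genes are not reported here.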

Additional observations from a re-analysis of the deposited data

How the results depend on the processing

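Of the 80 member results, 0 reversed under any setting while past the test; 103 of the 2120 values recomputed for members and named genes had the other sign, all of them past the test in neither fit. The count of members called in the double lesion against Vav Cre, 1, was 0 without a filter, with equal column totals, and when the fit held the compared groups alone. These settings called 11.5%, 15.7% and 2.22% of all genes. The count was 1 with the length and GC trend removed (14.4% of all genes), where Notch1 took the place of Dntt. It was 2 (Dntt and Notch1) with Vav Cre 2 and Tet2 KO 2 both left out (9.04%). These last 2 settings were chosen after seeing the data. In KDM6B OE against Vav Cre the count of 0 was 1 with DESeq2, where 5.65% of all genes were called. In the double lesion against KDM6B OE it was 1 when the fit held those groups alone, where 0.468% of all genes were called. For the transgene average it was 1 with DESeq2 (12.4% of all genes) and 2 with both libraries left out (1.95%). With single libraries left out, the counts ran from 0 to 2 in KDM6B OE, 0 to 1 in the double lesion against Vav Cre and 0 to 2 for the transgene average. The shares of all genes ran from 0.169% to 14.9%, from 2.31% to 27.6% and from 0.722% to 21.4% in these 3 comparisons.

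Of the wider list, 4 genes were called in the double lesion against Vav Cre. That count was 8 with equal column totals (15.7% of all genes), 0 with only the compared groups (2.22%) and 10 with DESeq2 (20.5%). It was 0 to 15 with single libraries left out (2.31% to 27.6% of all genes). DESeq2 gave 3 in KDM6B OE, 2 in Tet2 KO, 3 for the transgene average and 2 for the Tet2 average, where limma gave 0. The DESeq2 shares of all genes there were 5.65%, 1.23%, 12.4% and 2.76%. The compared groups alone gave 2 in the double lesion against KDM6B OE (0.468% of all genes). For the transgene average edgeR and the length and GC trend gave 1 each (3.27% and 5.34% of all genes). With single libraries left out the KDM6B OE count reached 6 (lowest 0), the Tet2 KO count 1 (lowest 0) and that of the transgene average 9 (lowest 0). The shares of all genes reached 14.9%, 2.35% and 21.4%. The cause was not tested.

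In the labels, libraries of different genotypes share only a number, and whether same-numbered libraries were handled together is not stated. Of 18 same-numbered pairs, 10 had deviations correlated above 0.1 (−0.149 to 0.388), and 22 of 36 best matches had the same number. With the number as a replicate block the members called stayed at 1 in the double lesion against Vav Cre (Dntt, adjusted p = 0.0127) and 0 elsewhere. In the block fit the wider list had 8 calls there and 1 for the transgene average. That fit called 20.7% and 11.6% of all genes in these comparisons, against 14.9% and 4.35% without the block. Depth limits Rag1 and Igll1, with at most 58 and 170 reads in a library.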
